A study of Mus musculus with 111 samples.

Results

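The response of the mouse lung to bleomycin was compared between days 21 and 35 after a single instillation. For each gene the response was the mean log2 level in bleomycin mice minus the mean in saline mice of the same day, and the change was the response at day 35 minus the response at day 21. The comparison used 32 arrays of a time course, 8 mice in each of 4 of its 14 groups, and covered all 15707 genes that could be named from a single-gene probeset. All mice were male C57BL6/J, 7 to 9 weeks old at purchase, and each array held RNA of 1 mouse. The bleomycin mice had received 2 U/kg bleomycin in 50 µl into the trachea once, and the saline mice had received saline by the same route. Lungs were homogenized whole, so that blood in the vessels, and pieces of heart or fat that came out with the lung, were part of the sample.

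Bleomycin breaks DNA strands and injures the alveolar epithelium and the vascular endothelium. In this model an early inflammatory phase gives way to proliferation of fibroblasts, macrophages and epithelial cells and to deposition of collagen, and the later weeks are of interest because scarring may persist or recede after a single injury. The comparison therefore asks which parts of the response grew, shrank or stayed between the established fibrosis of day 21 and the late phase of day 35.

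The surfactant protein gene Sftpc, of alveolar type II cells, lay between 14.37 and 14.48 on the log2 scale in the 32 mice. Scgb1a1, the secretory protein of club cells, lay between 14.49 and 14.65. Both were near the top of the scale, which ended at 14.69, in every group. Array medians over the series ran from 8.61 to 8.73.

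A pair of mice stood apart from their groups and bears on the counts below. As a measure of its response, each mouse was given its mean over 379 genes that bleomycin had raised more than 2-fold at day 14, a choice made on other arrays. At day 21 this mean was -0.07 in replicate 4 of the bleomycin group and 0.46 to 1.51 in the other 7 mice. At day 35 it was 1.76 in replicate 3 of the bleomycin group and 0.25 to 1.00 in the other 7. The day 21 mouse labelled bleomycin thus lay within the saline range of -0.15 to 0.34, and the day 35 mouse lay above every bleomycin mouse of day 21. The same arrays had the lowest median correlation with their own group, 0.979 and 0.978, where the next lowest was 0.983. Both lay so as to lessen a decline of the response from day 21 to day 35. Where leaving out both changed which genes of a described list had a called change, the calls without them stand beside its results. Since the pair was chosen after its values were seen, and by a measure that follows the response, those counts describe the other 30 mice and are no independent test. Leaving the pair out was bound to enlarge a decline of this measure. Mice at the opposite extremes were left out only 1 at a time.

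**Figure D1:**
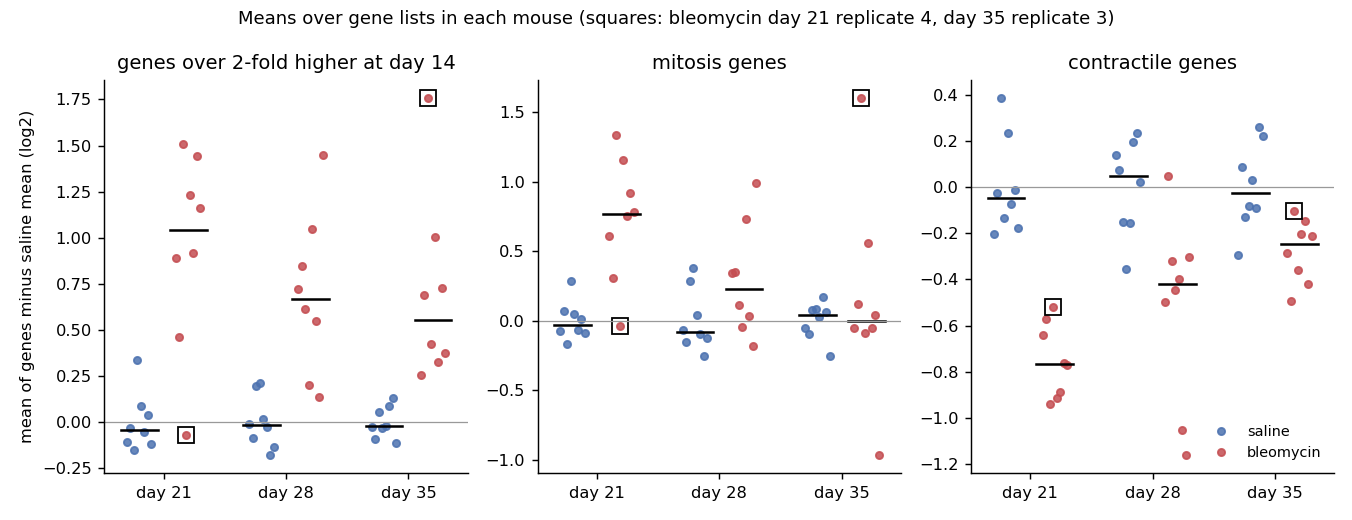
Mean level of a gene list in each mouse minus the saline mean of the same day (log2, vertical axis) at days 21, 28 and 35, for 379 genes chosen at day 14, 37 mitosis genes and 14 contractile genes. Points are mice, bars are medians of 8 mice, and squares mark replicate 4 of bleomycin day 21, near 0 in the first 2 panels, and replicate 3 of bleomycin day 35, the highest point there. In the contractile panel the bleomycin mice of day 21 lay between -0.94 and -0.52 and those of day 35 between -0.49 and -0.10.

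With all mice, 6 of 15707 genes changed their response (0.0382%) by limma with Benjamini-Hochberg adjustment at 0.05. The response of 4 genes moved up (0.0255%) and that of 2 moved down (0.0127%). At an unadjusted p under 0.05 there were 869 genes with a higher response at day 35 (5.53%) and 628 with a lower one (4.0%), and 53.7% of all genes lay above 0. The median change over all genes was 0.01 on the log2 scale, with a median standard error of 0.11. For 15263 genes (97.2%) the 95% interval of the change lay within 1 log2 unit, that is 2-fold, to either side of 0. For comparison, 6190 genes (39.4%) differed between bleomycin and saline mice at day 21 and 4617 (29.4%) at day 35. Most genes thus had intervals that left room for changes under 2-fold only. Higher in bleomycin mice were 20.5% of all genes at day 21 and 16.9% at day 35, and lower were 18.9% and 12.5%. Between the days 1.32% rose and 1.28% fell in bleomycin mice, and 2.08% rose and 1.73% fell in saline mice. These shares are the background of the list counts below that use all mice.

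The count of changed genes rested on the mice used. Without replicate 3 of bleomycin day 35 it was 140, without replicate 4 of bleomycin day 21 it was 52, and without both it was 433, of which 191 moved up and 242 down. With all mice kept but each array weighted by its agreement with its group, 174 genes were called, 73 up and 101 down. The 6 genes were called in each of these 4 settings. In the other direction, no gene passed without replicate 3 of saline day 21, where 1411 genes had an unadjusted p under 0.05. Leaving out any of the other 29 mice gave 1 to 11 genes. A fit to the 4 groups alone called 1 gene, which was none of the 6.

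**Figure D2:**
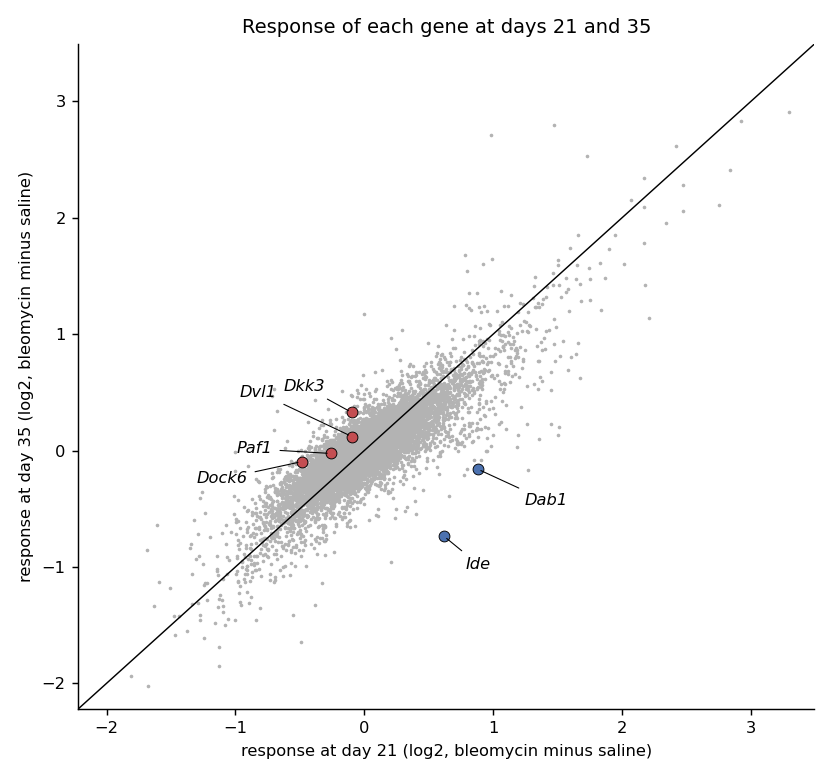
Response at day 21 (horizontal axis) against response at day 35 (vertical axis), both log2 bleomycin minus saline, for 15707 genes (grey points). The line marks equal responses. The 4 red genes lay above it and the 2 blue genes below it, with Ide at 0.62 and -0.74.

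Dkk3 encodes a secreted protein related to the Dickkopf inhibitors of Wnt signalling and had the smallest adjusted p of all genes. Its log2 level ran from 11.48 to 11.91 (median 11.59) in saline mice and from 11.34 to 11.72 (median 11.56) in bleomycin mice at day 21. At day 35 it ran from 11.38 to 11.58 (median 11.44) in saline mice and from 11.67 to 12.01 (median 11.78) in bleomycin mice. At day 35 the groups did not overlap, while at day 21 they did. The response was -0.10 at day 21, 0.06 at day 28 and 0.33 at day 35, a change of 0.43 ± 0.08 (SE, n = 8 mice per group, limma adjusted p = 0.0130). The 8 bleomycin mice of day 35, each set against the saline mean of its day, gave responses of 0.21 to 0.55, all above the -0.29 to 0.09 of day 21, a separation that 59 genes (0.376%) showed upward. The second Dkk3 probeset gave a change of 0.39.

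Dvl1 encodes a Dishevelled protein, which carries the Wnt signal from receptor to cytoplasm. Its level had a median of 10.68 (10.59 to 10.84) in saline and 10.63 (10.50 to 10.67) in bleomycin mice at day 21, and 10.62 (10.52 to 10.68) and 10.77 (10.58 to 10.81) at day 35. The response was -0.10 at day 21 and 0.12 at day 35, past the threshold at both days with opposite signs, and the change was 0.22 ± 0.05 (SE, n = 8 per group, limma adjusted p = 0.0454). The levels of bleomycin and saline mice overlapped at both days. Set against the saline mean of their day, the bleomycin mice gave responses of -0.22 to -0.04 at day 21. At day 35 they gave -0.03 to 0.20, all above those of day 21, as in 59 genes (0.376%). Dvl1 was the one gene of the 6 whose day 28 response, -0.13, did not lie between those of days 21 and 35. Of all genes 32.9% had a day 28 response between the other days. A list of 25 measured Wnt genes holds Dkk3 but not Dvl1, and in it Dkk3 alone was called with all mice. In that list 3 lay above and 1 below 0 at an unadjusted p under 0.05, and the median change was 0.04. The lowest was Sfrp2, a secreted Wnt antagonist, at -0.61 (SE 0.24, adjusted p = 0.348). Sfrp2 passed as well without the pair of mice that stood apart, with a change of -0.81 (adjusted p = 0.0383).

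Dock6 encodes an exchange factor that activates the small GTPases Rac and Cdc42. Its level ran from 11.86 to 12.07 (median 11.96) in saline and reached 11.82 (median 11.50) in bleomycin mice at day 21, where the responses of the mice were -0.96 to -0.14. At day 35 it ran from 11.85 to 11.97 (median 11.92) and from 11.60 to 12.02 (median 11.79). The groups were apart at day 21 and overlapped at day 35. The response of -0.49 at day 21 had become -0.10 at day 35, and the change was 0.39 ± 0.09 (SE, n = 8 per group, limma adjusted p = 0.0420). The bleomycin mice rose by 0.35 between the days, while the saline mice differed by -0.04, which did not pass.

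Paf1 encodes a subunit of the PAF complex, which accompanies RNA polymerase II during elongation. The saline mice had a median of 12.69 (12.55 to 12.71) at day 21 and 12.46 (12.39 to 12.62) at day 35. The bleomycin mice had a median of 12.42 (12.26 to 12.47) at day 21 and 12.46 (12.24 to 12.59) at day 35. Bleomycin and saline mice were apart at day 21 and overlapped at day 35. The response went from -0.26 to -0.02, a change of 0.23 ± 0.05 (SE, n = 8 per group, limma adjusted p = 0.0244). Here the saline mice fell by 0.19 between the days, and the bleomycin mice differed by 0.05, which did not pass.

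Dab1 encodes an adaptor of reelin signalling. In bleomycin mice its level ran from 6.44 to 8.00 (median 6.97) at day 21 and from 5.99 to 6.73 (median 6.32) at day 35. In saline mice it ran from 5.67 to 6.83 (median 6.10) and from 6.14 to 7.13 (median 6.35). The response of 0.88 at day 21 was 0.38 at day 28 and -0.16 at day 35, a change of -1.04 ± 0.23 (SE, n = 8 per group, limma adjusted p = 0.0420). The levels of bleomycin and saline mice overlapped at both days. Set against the saline mean of their day, the bleomycin mice gave responses of 0.244 to 1.802 at day 21. At day 35 they gave -0.500 to 0.238, all below those of day 21 by a narrow margin, as in 20 genes (0.127%). Dab1 was measured by 5 probesets, whose changes ran from -1.04 to -0.03, so that the probesets disagreed about its size.

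**Figure D3:**
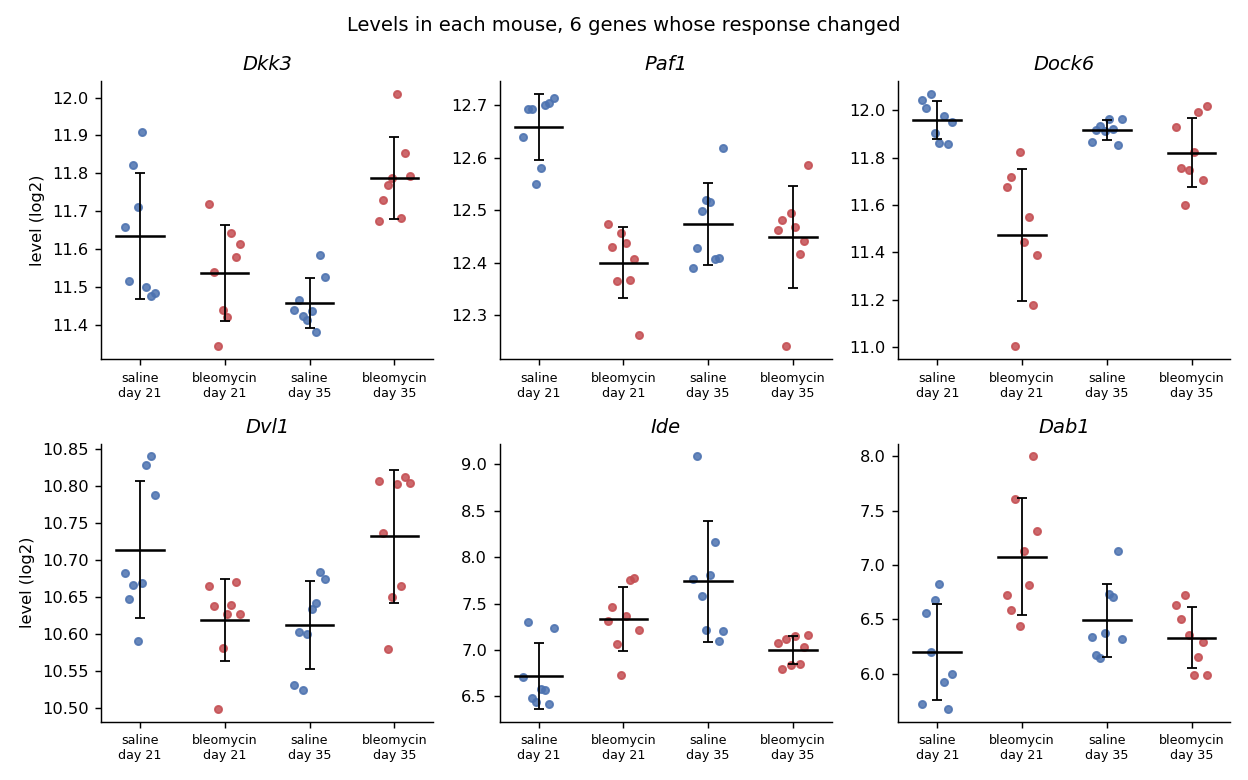
Log2 level of the 6 genes whose response changed, in each mouse of the 4 groups (saline blue, bleomycin red). Bars are group means and whiskers are 1 SD of 8 mice, and each panel has its own vertical axis. Dkk3 was apart between bleomycin and saline mice at day 35, Paf1 and Dock6 at day 21.

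Ide encodes insulin-degrading enzyme, a zinc metalloprotease, and had the largest change of the 6. In saline mice the level ran from 6.41 to 7.30 (median 6.57) at day 21 and from 7.09 to 9.09 (median 7.67) at day 35. In bleomycin mice it ran from 6.73 to 7.78 (median 7.34) at day 21 and from 6.80 to 7.16 (median 7.05) at day 35. The saline mice rose by 1.02 between the days, whereas the difference of -0.33 in bleomycin mice did not pass. The response accordingly went from 0.62 at day 21, through 0.22 at day 28, to -0.74 at day 35, a change of -1.35 ± 0.28 (SE, n = 8 per group, limma adjusted p = 0.0244). All 8 bleomycin mice of day 35 (-0.94 to -0.58) lay below those of day 21 (0.02 to 1.06), which 20 genes (0.127%) showed downward. The 5 probesets of Ide gave changes of -1.35 to -0.57.

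The genes whose within-group deviations over all mice of the series were most like those of Ide, among all other genes tested, both lie on the same chromosome. They were Fgfbp3, which encodes an FGF-binding protein (r = 0.772), and the unnamed gene 4931408D14Rik (r = 0.585). Over the 32 mice the values were 0.593 and 0.485, and there Lamtor3, on another chromosome, was higher at 0.642, with a change of -0.04. The correlations are over mice of many groups, with the group means removed, and the expression data share arrays, so they are given as a description. Fgfbp3 had a change of -0.81 (SE 0.22, adjusted p = 0.157), and 4931408D14Rik one of -1.43 (SE 0.35, adjusted p = 0.122). Neither passed. The 3 protein-coding genes that lie between Ide and Fgfbp3 did not share the pattern. Btaf1, Cpeb3 and Marchf5 had correlations with Ide of -0.18, 0.03 and -0.05 and changes of 0.08, -0.01 and 0.04. A copy-number variant that involves Ide and Fgfbp3 is known to segregate among C57BL/6J mice. Whether it holds the 3 genes between them was not examined. Genotypes were not measured, and the part of such a variant in the result was not tested.

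Genes of mitosis had a response above 0 at day 21 that was smaller at day 35. At day 21, 33 of 37 were higher in bleomycin mice (background 20.5% of all genes), and at day 35 there were 3 (background 16.9%). The median response was 0.76 at day 21, 0.29 at day 28 and 0.16 at day 35. Within the bleomycin mice 17 of the 37 fell from day 21 to day 35 (background 1.28%), and none did in the saline mice (0 of 37, background 1.73%), whose median difference was 0.02. The change of response had a median of -0.63 over the list, beside 0.01 over all genes. It was below 0 for 36 genes and reached an unadjusted p under 0.05 downward for 24 of them (background 4.0%), but no member passed the adjusted test with all mice. In whole lung, fewer dividing cells and less of these transcripts in each cell cannot be told apart.

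The largest changes of the list were those of Cep55, which acts in the final cut between daughter cells, and Hmmr, a spindle-associated hyaluronan receptor. Cep55 had medians of 8.69 (8.18 to 9.42) in saline and 10.38 (8.84 to 11.07) in bleomycin mice at day 21, and 9.05 (8.62 to 9.41) and 9.20 (6.79 to 11.69) at day 35. The response was 1.51 at day 21 and 0.20 at day 35, and the change was -1.31 ± 0.37 (SE, adjusted p = 0.160). Hmmr changed from a response of 1.36 to one of 0.10, with a difference of -1.26 ± 0.40 (SE, adjusted p = 0.224). For both genes the bleomycin mice of day 35 spread over more than 4 log2 units, and the groups overlapped. The other Cep55 probeset, at a mean level of 5.82, gave a change of -0.55. The other Hmmr probesets, at 5.98 and 6.26, gave -0.05 and -0.23. Leaving out 1 mouse at a time gave changes of -1.66 to -0.96 for Cep55 and -1.62 to -0.90 for Hmmr.

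That spread ran through the list. The mean over the 37 genes, taken against the saline mean, was -0.04 in replicate 4 of bleomycin day 21 and 0.30 to 1.33 in the other 7 mice of that group. At day 35 it was 1.60 in replicate 3, 0.56 in replicate 5, -0.97 in replicate 8 and between -0.09 and 0.12 in the other 5. In saline mice it stayed within -0.17 to 0.28 at day 21 and -0.26 to 0.17 at day 35. Thus 7 of 8 bleomycin mice at day 21 were above the saline range of that day, while at day 35 there were 2 above it, 5 within it and 1 below. Without the pair of mice that stood apart, 29 of 37 genes passed downward and 1 upward, and the median change was -0.96. That pair lay against a fall, so its removal was bound to enlarge one, and these calls are no independent sign of it. With array weights 14 passed downward and 1 upward. The gene that went up in both was Pttg1, whose product securin holds back separase. Its response was -0.65 at day 21 and -0.35 at day 35, the opposite of the list. With all mice its change was 0.30, and its brighter probesets gave 0.13 and 0.12.

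Genes of DNA replication moved with them, by less. Of 31 measured, 21 were higher in bleomycin mice at day 21 (background 20.5%) and 3 at day 35 (background 16.9%). The median responses were 0.33, 0.10 and 0.07 at days 21, 28 and 35. The median change was -0.25, 29 genes lay below 0 and 12 had an unadjusted p under 0.05 downward, with none upward and no adjusted call. In bleomycin mice 4 fell between the days (background 1.28%). Chek1, a checkpoint kinase, had a change of -0.73 (SE 0.24, adjusted p = 0.242) and Clspn, its claspin partner, one of -0.69. Without the pair of mice 14 genes passed, all downward, and with array weights 3 did.

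Sequences upstream of some of these genes are shown because the genes moved together and because promoters of cell-cycle genes are known to hold shared elements. The elements searched were the cell-cycle gene homology region, TTTGAA or TTTAAA, and the CCAAT box, CCAAT, on both strands (TTCAAA and ATTGG on the reverse strand). The CArG box, which is CC, 6 letters A or T, and GG, was searched as well. The search covered the 250 bases before the start in the first RefSeq window of each gene, build GRCm38.p6. In the sequences printed below the matches do not overlap each other. Of the 37 mitosis genes 29 had a window, and 14 of these held the homology region (48.3%), beside 18.6% of 12513 genes tested with a window. The CCAAT box was found in 22 of the 29 (75.9%) and in 35.1% of all, and both elements in 12 (41.4%) and in 6.81% of all. For the replication genes, with 27 windows, the shares were 22.2% for the homology region and 63.0% for the CCAAT box. The contractile genes described below, which moved the other way, held the CCAAT box in 6 of 10 windows (60.0%) and the homology region in 0. The CArG box was found in 0 of these 10 windows and 0 of the 29 of mitosis genes, beside 1.24% of all. The letters are matches and no measure of binding. The 120 bases before the start are printed 5′ to 3′ on the gene's strand, with matches in capitals, for Cdc20, the activator of the anaphase-promoting complex (chr4:118437344-118437463, minus strand), Cdk1, the mitotic kinase (chr10:69352913-69353032, minus strand), and Hmmr (chr11:40733438-40733557, minus strand).
Cdc20: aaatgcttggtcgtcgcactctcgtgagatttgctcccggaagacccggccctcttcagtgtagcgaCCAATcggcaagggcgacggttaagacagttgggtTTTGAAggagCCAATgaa
Cdk1: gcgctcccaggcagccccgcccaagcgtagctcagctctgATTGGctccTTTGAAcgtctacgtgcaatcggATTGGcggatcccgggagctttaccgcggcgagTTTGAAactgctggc
Hmmr: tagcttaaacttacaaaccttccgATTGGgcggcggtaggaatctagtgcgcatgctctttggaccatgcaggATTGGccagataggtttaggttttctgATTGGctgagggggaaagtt

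In Cdc20 the homology region lay 18 bases before the start with a CCAAT box on each side of it, at 53 and 8 bases. In Cdk1 there were 2 homology regions, at 71 and 15 bases, and 2 CCAAT boxes. Hmmr held 3 CCAAT boxes and no homology region in these letters. The response of Cdc20 went from 1.19 to 0.03, a change of -1.16 ± 0.33 (SE, adjusted p = 0.157), and that of Cdk1 from 1.22 to 0.38, a change of -0.84 ± 0.31 (SE, adjusted p = 0.312). The brighter Cdc20 probeset gave a change of -0.65. The genes shown were chosen for display after their values were seen.

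Contractile genes of smooth muscle and myofibroblasts moved the other way, with a response below 0 that had become smaller. At day 21, 11 of 14 were lower in bleomycin mice (background 18.9% of all genes), and at day 35 there were 3 (background 12.5%). The median response was -0.62 at day 21, -0.49 at day 28 and -0.24 at day 35. The change was above 0 for all 14 genes, with a median of 0.44, and 7 reached an unadjusted p under 0.05 (background 5.53%), none of them after adjustment. In bleomycin mice 3 rose between the days (background 1.32%) and in saline mice none did (background 2.08%). The mean over the 14 genes, taken against the saline mean, lay between -0.94 and -0.52 in the bleomycin mice of day 21 and between -0.49 and -0.10 in those of day 35. The mice of the 2 days did not overlap, and the nearest were at -0.52 and -0.49. The pair that stood apart were the highest of their groups, at -0.52 and -0.10. At day 28 the bleomycin mice ran from -1.16 to 0.05, over the ranges of both other days. Without that pair the median change was 0.44 again, and 3 genes passed, namely Myh11, Mylk and Tagln. With array weights 4 did, Cnn1, Des, Myh11 and Tagln.

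The genes with the largest changes were Cnn1, the actin-binding calponin of smooth muscle, and Actg2, the gamma actin of smooth muscle. Cnn1 had medians of 10.36 (9.82 to 11.10) in saline and 8.83 (8.15 to 9.22) in bleomycin mice at day 21, and 9.97 (9.27 to 10.45) and 9.37 (8.83 to 9.62) at day 35. The groups were apart at day 21 and overlapped at day 35, and the change was 0.97 ± 0.32 (SE, adjusted p = 0.238). Actg2 ran from 9.17 to 10.17 in bleomycin mice at day 21 and had a median of 10.59 (highest 10.87) at day 35, with saline mice at 10.49 to 11.72 and 10.25 to 11.37, and its change was 0.87 ± 0.29 (SE, adjusted p = 0.249). Myh11, the smooth muscle myosin heavy chain, went from a response of -1.32 to one of -0.59. Tagln, another actin-binding protein, went from -0.65 to -0.16, with responses of -0.79 to -0.49 in the mice of day 21 and -0.41 to 0.06 in those of day 35. For Acta2, the actin most used as a myofibroblast marker, the response was -1.24 at day 21 and -0.54 at day 35, and the change of 0.70 had a 95% interval of -0.11 to 1.51. That probeset is dim, with a mean level of 7.28, and the bright one, at 12.93, gave a change of 0.50 (SE 0.15, unadjusted p = 0.00167, adjusted p = 0.177 over all probesets). Myh11, Tagln and Acta2 are named here after their values were seen.

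Also chosen after their values were seen were Notch3 and Pdgfrb, which did not pass with all mice. Notch3, the receptor of vascular smooth muscle and pericytes, had a response of -0.43 at day 21, -0.12 at day 28 and -0.05 at day 35. The change was 0.38 ± 0.09 (SE, adjusted p = 0.0817). Pdgfrb, the PDGF receptor of pericytes and fibroblasts, went from -0.41 to -0.04, a change of 0.38 ± 0.10 (SE, adjusted p = 0.157). The brighter Pdgfrb probeset gave 0.12 (SE 0.09, unadjusted p = 0.186), and that of Notch3 gave 0.30. Without the pair of mice Notch3 passed with 0.42 (adjusted p = 0.00234) and Pdgfrb with 0.36 (adjusted p = 0.0365). In bleomycin mice Notch3 rose by 0.42 and Pdgfrb by 0.34 between the days, while the saline mice differed by 0.04 and -0.04.

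Markers of heart muscle, which can come out with the lung, were measured too. Of 16 cardiac muscle genes 4 were lower in bleomycin mice at day 21 (background 18.9%) and 6 at day 35 (background 12.5%), with median responses of -0.91 and -1.17. None changed its response. The list's mean against saline ran from -2.10 to -0.05 in bleomycin mice at day 21 and from -3.02 to 0.64 at day 35, and in saline mice from -0.57 to 0.95 and from -2.45 to 0.93. Its median change was -0.23 with all mice, 0.14 without the pair of mice and 0.42 with array weights, so that its sign turned. Without the pair 8 genes were lower at day 21 and 1 at day 35. The part of heart muscle in the other lists was not tested.

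Endothelial genes also had a response below 0 that was smaller at day 35. Of 25 measured, 19 were lower in bleomycin mice at day 21 (background 18.9%) and 16 at day 35 (background 12.5%). The median response was -0.43, -0.22 and -0.19 at days 21, 28 and 35. The change was above 0 for 23 genes, with a median of 0.17 and 5 unadjusted calls upward, and none passed. Sox17, a transcription factor of arterial endothelium, was the highest with a change of 0.38 (SE 0.12, adjusted p = 0.220), from a response of 0.00 at day 21 to one of 0.38 at day 35. Without the pair of mice that stood apart 3 genes passed upward, among them Pecam1, the adhesion molecule of endothelial junctions, and Cldn5, the claudin of those junctions. Pecam1 ran from 12.12 to 12.31 in saline and from 11.28 to 12.31 in bleomycin mice at day 21. At day 35 it ran from 11.94 to 12.19 and from 11.67 to 12.04. Its response was -0.43 at day 21 and -0.19 at day 35.

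Transcripts of platelets were lower in bleomycin mice at day 35. Of 7 genes, 6 were lower at day 35 (background 12.5%) and 0 at day 21, or 4 at day 21 without replicate 4 of that bleomycin group, with median responses of -0.20, -0.18 and -0.57 at days 21, 28 and 35. The change was below 0 for all 7, with a median of -0.41 and 5 unadjusted calls, none adjusted. In bleomycin mice 4 fell between the days (background 1.28%). Ppbp, a chemokine stored in platelet granules, had medians of 11.12 (10.80 to 11.32) in saline and 10.62 (9.77 to 11.63) in bleomycin mice at day 21, and 11.06 (10.54 to 11.88) and 9.68 (9.19 to 10.64) at day 35. Its response went from -0.38 to -1.33, a change of -0.95 ± 0.28 (SE, adjusted p = 0.184). Gp9, a subunit of the von Willebrand factor receptor, had a change of -0.43 (SE 0.15, adjusted p = 0.299). With array weights Ppbp, Gp9 and Itga2b passed, while without the pair of mice none did, and the median change was -0.29.

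Only 4 red blood cell genes were measured, and all had changes below 0. Alas2, the first enzyme of haem synthesis in red cell precursors, had the largest at -1.17 (SE 0.71, adjusted p = 0.637). Slc4a1, the anion exchanger of the red cell membrane, had one of -1.15 (SE 0.58, adjusted p = 0.524). In bleomycin mice Slc4a1 ran from 6.73 to 9.34 at day 21 and from 4.71 to 6.78 at day 35, and fell by 2.14. In saline mice the difference of -0.99 did not pass. The other Slc4a1 probesets gave changes of -0.78 and 0.07. The amount of blood left in each lung was not measured, and its part in these lists was not tested.

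Some genes moved with the day in both kinds of mice. Between days 21 and 35, 21 genes were higher and 19 lower in both saline and bleomycin mice, and none moved opposite ways. Genes of the granules that neutrophils build in the bone marrow were among the 19. Ngp, a neutrophil granule protein, ran from 9.71 to 11.30 in saline and 7.80 to 10.95 in bleomycin mice at day 21, and from 5.73 to 10.05 and 5.43 to 7.41 at day 35. It fell by 2.58 in saline mice and fell by 3.19 in bleomycin mice. Camp, the cathelicidin precursor, fell by 2.38 in saline and fell by 2.71 in bleomycin mice, and Mpo, myeloperoxidase, fell by 1.83 and fell by 1.57. The changes of response were -0.61 for Ngp (95% interval -2.10 to 0.88), -0.33 for Camp (-1.40 to 0.75) and 0.26 for Mpo (-0.38 to 0.89), and none passed. Of the whole list of 13 neutrophil genes, these 3 fell in both kinds of mice, and they are named after their values were seen. The list's changes lay above 0 for 10 genes, up to 0.83, and below 0 for 3. Its median change was 0.46 with no unadjusted call.

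**Figure D4:**
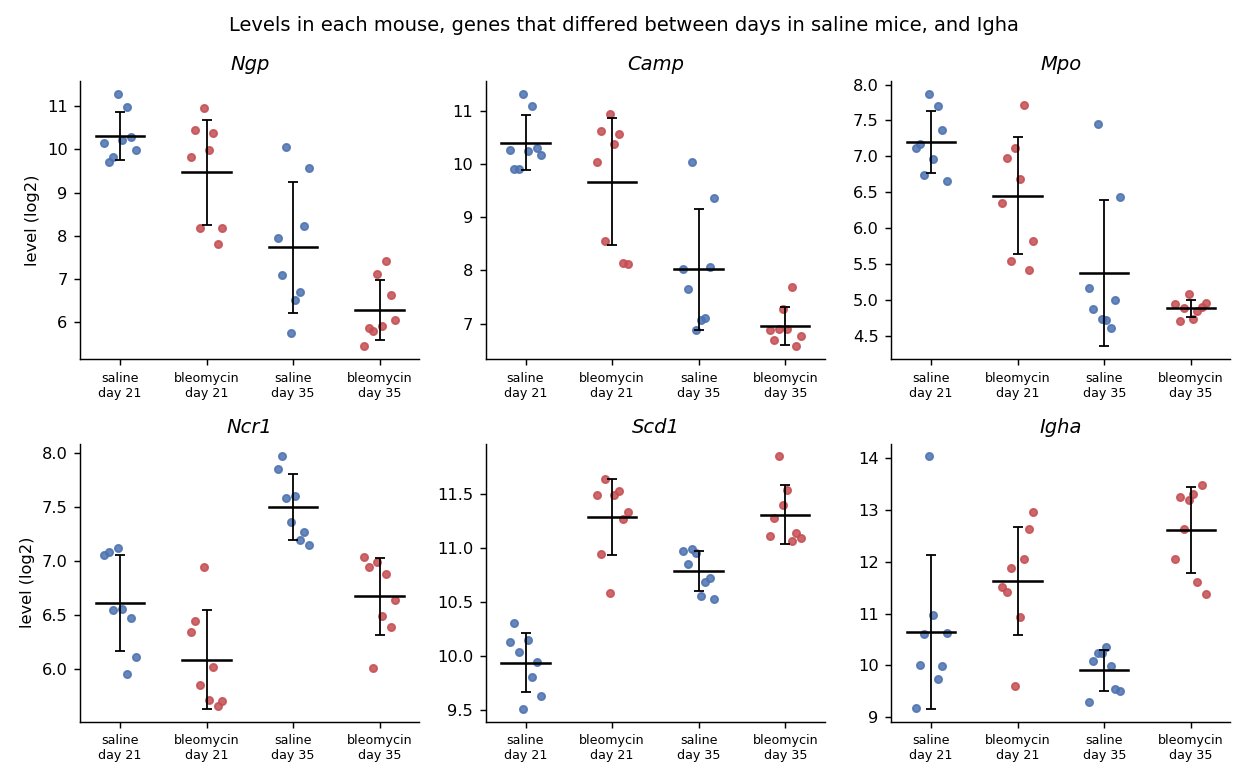
Log2 level in each mouse of the 4 groups (saline blue, bleomycin red) for 5 genes that differed between days 21 and 35 in saline mice, and for Igha. Bars are group means and whiskers are 1 SD of 8 mice, with a separate vertical axis for each panel. Ngp, Camp and Mpo were lower at day 35 in both kinds of mice, and Scd1 was higher at day 35 in saline mice, while bleomycin mice had means of 11.29 and 11.31.

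Genes of natural killer and cytotoxic cells rose with the day in saline mice. Of 12, 10 rose between days 21 and 35 in saline mice (background 2.08%) and 0 in bleomycin mice (background 1.32%), with median differences of 0.57 and 0.23. The count in bleomycin mice rested on the pair of mice, since it was 3 without either one, 4 without both and 4 with array weights. At day 21, 5 were lower in bleomycin mice (background 18.9%) and 1 was higher (background 20.5%). At day 35, 10 were lower (background 12.5%) and 0 higher (background 16.9%). The change of response was below 0 for all 12, with a median of -0.32, 4 unadjusted calls and none adjusted. Ncr1, an activating receptor of natural killer cells, had medians of 6.55 and 7.47 in saline mice at days 21 and 35 and of 5.93 and 6.76 in bleomycin mice. It rose by 0.89 in saline mice, the difference of 0.59 in bleomycin mice did not pass, and the change of -0.30 had a 95% interval of -0.82 to 0.22. Klrg1, an inhibitory receptor of mature cytotoxic cells, had the largest change of the list, -0.80 (SE 0.23, adjusted p = 0.157), followed by the chemokine Ccl5 at -0.48. Klrg1 passed without the pair (-0.95, adjusted p = 0.00972), without replicate 3 of bleomycin day 35 and with array weights.

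B cell genes were low in bleomycin mice at both days. Of 12, 9 were lower at day 21 (background 18.9%) and 10 at day 35 (background 12.5%). The median responses were -0.65, -0.34 and -0.78 at days 21, 28 and 35, and the median change was -0.11. At day 28 only 2 were lower (1847 of all 15707 genes). B cell genes also rose with the day, 5 in saline mice (background 2.08%) and 1 in bleomycin mice (background 1.32%). The median differences were 0.61 and 0.38. Without the pair of mice 7 rose in bleomycin mice (732 of all 15707 genes). Igha, the heavy chain of IgA, was higher in bleomycin mice at both days, with responses of 0.98 at day 21, 1.81 at day 28 and 2.71 at day 35. Its level in saline mice ran from 9.19 to 14.03 (median 10.30) at day 21 and from 9.29 to 10.36 (median 10.03) at day 35. In bleomycin mice it ran from 9.61 to 12.95 (median 11.69) and from 11.38 to 13.49 (median 12.91). The groups were apart at day 35 and overlapped at day 21, when 1 saline mouse had the highest level of all. The change of 1.73 ± 0.58 (SE) had an adjusted p of 0.247, and without that saline mouse the change was 1.24. The list of plasma cell and IgA secretion genes, 11 with Igha, had a median change of 0.06. Prg2, the major basic protein of eosinophils, had a change of 1.17 ± 0.42 (SE, adjusted p = 0.299), with the same saline mouse, replicate 4 of day 21, at 9.37 and the next at 6.95. Without that mouse the change of Prg2 was 0.75 (adjusted p = 0.465). Igha and Prg2 were the largest of their lists.

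Matrix genes were higher in bleomycin mice at both days, and their changes lay near 0 with all mice. Of 11 fibrillar collagens 7 were higher at day 21 (background 20.5%) and 6 at day 35 (background 16.9%). The median responses were 0.52, 0.30 and 0.45 at days 21, 28 and 35, and the median change was -0.06. Col3a1 had the largest change, -0.38 ± 0.25 (SE), with a 95% interval of -0.88 to 0.12. Its level ran from 10.76 to 11.99 in saline and 11.10 to 12.60 in bleomycin mice at day 21, and from 10.71 to 11.59 and 11.28 to 12.82 at day 35, overlapping at both. The brighter Col3a1 probeset, at a mean level of 13.40, gave a change of -0.10. Col5a2, a chain of the collagen that regulates fibril width, had a change of -0.33. Col1a1, the main chain of type I collagen, had responses of 0.35 and 0.38 and a change of 0.03, with an interval of -0.32 to 0.37 and a sign that turned in several settings. The mouse means of the list were -0.15 in replicate 4 of bleomycin day 21 and 1.34 in replicate 3 of bleomycin day 35. Without this pair the list median of the change was -0.32 and 1 gene, Col5a2, passed, downward.

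Among 21 matricellular and provisional matrix genes, 10 were higher in bleomycin mice at day 21 (background 20.5%) and 9 at day 35 (background 16.9%). The median change was 0.02. Fbn2, a fibrillin of developing elastic fibres, had the largest change, -0.99 ± 0.30 (SE, adjusted p = 0.185), with responses of 0.78 and -0.21. It fell by 0.87 in bleomycin mice. Fbn2 passed without the pair of mice with -1.30 (adjusted p = 0.00352), as it did with array weights, and the list's median change was -0.25. Thbs1, thrombospondin-1, was the next in size at 0.44. Of 23 metalloproteases and their inhibitors 12 were higher at each day (backgrounds 20.5% and 16.9%), and the median change was 0.00. Mmp13, a collagenase, had responses of 1.68 and 0.62 and a change of -1.05 ± 0.35 (SE, adjusted p = 0.242). Without the pair Mmp13 passed with -1.41 (adjusted p = 0.00881), together with Adamts12, and the list's median change was -0.14. With array weights Mmp13 passed alone. Mmp12, macrophage elastase, stayed the most elevated of the list, with responses of 3.29, 3.06 and 2.91 at days 21, 28 and 35 and a change of -0.39 (95% interval -1.27 to 0.49). In saline mice it ran from 7.02 to 8.10 at day 21 and from 7.39 to 8.21 at day 35. In bleomycin mice it ran from 7.62 to 12.10 and from 9.45 to 11.77, and replicate 4 of day 21 was the mouse at 7.62, the next lowest being 10.74. Timp1, an inhibitor of these proteases, had responses of 1.36 and 1.24, and the interval of its change was -1.12 to 0.88.

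Signalling by TGF-beta and activin, a driver of fibroblast activation, had 10 of 31 genes higher and 9 lower in bleomycin mice at day 21 (backgrounds 20.5% and 18.9%), and 11 and 5 at day 35 (backgrounds 16.9% and 12.5%). The median change was 0.10, with 4 unadjusted calls upward, none downward and none adjusted. Smad6, an inhibitor within the pathway, had a change of 0.43 (SE 0.26, adjusted p = 0.630). Without the pair of mice 1 gene of the list passed, Acvrl1, upward.

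Several macrophage and inflammatory lists were likewise elevated at both days, but not all. The backgrounds of higher genes were 20.5% at day 21 and 16.9% at day 35 for each of these lists. Of 9 resident alveolar macrophage genes 5 were higher and 3 lower at day 21, and 3 and 3 at day 35 (backgrounds of lower genes 18.9% and 12.5%). Their median responses were 0.59 and -0.08. Of 27 interferon-stimulated genes 4 were higher at day 21 and 1 at day 35, with median responses of 0.08 and 0.02. Of 15 genes of lipid-handling macrophages 12 were higher at day 21 and 10 at day 35, with median responses of 0.58 and 0.47. Apoc1, an apolipoprotein, had a change of -0.57 ± 0.18 (SE, adjusted p = 0.194). Without the pair it passed with -0.62 (adjusted p = 0.0432), as it did with array weights. Of 17 lysosomal genes 15 were higher at day 21 and 14 at day 35, with median responses of 0.34 and 0.31. Of 25 chemokines 14 were higher at each day, and the median response was 0.53 at day 21 and 0.72 at day 35. Their median change was 0.01 all the same, with 13 genes above 0 and 12 below. Without the pair the median response was 0.62 at both days and the median change was -0.23. Complement had 7 and 6 of 10 genes higher, and Cfi, the protease factor I, had the largest change at -0.77 ± 0.24 (SE, adjusted p = 0.194). Cfi passed without the pair (-1.13, adjusted p = 0.000547), without either mouse of it and with array weights, and the median change of complement without the pair was -0.20. The acute-phase proteins had 8 of 12 genes higher at day 21 and 6 at day 35. Their median response was 0.99 at day 21, 0.40 at day 28 and 0.43 at day 35, and their median change was -0.24. Fgg, a fibrinogen chain, had the largest, -1.03 ± 0.39 (SE, adjusted p = 0.327). Without the pair 1 gene of the list passed, Ptx3, downward.

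**Figure D5:**
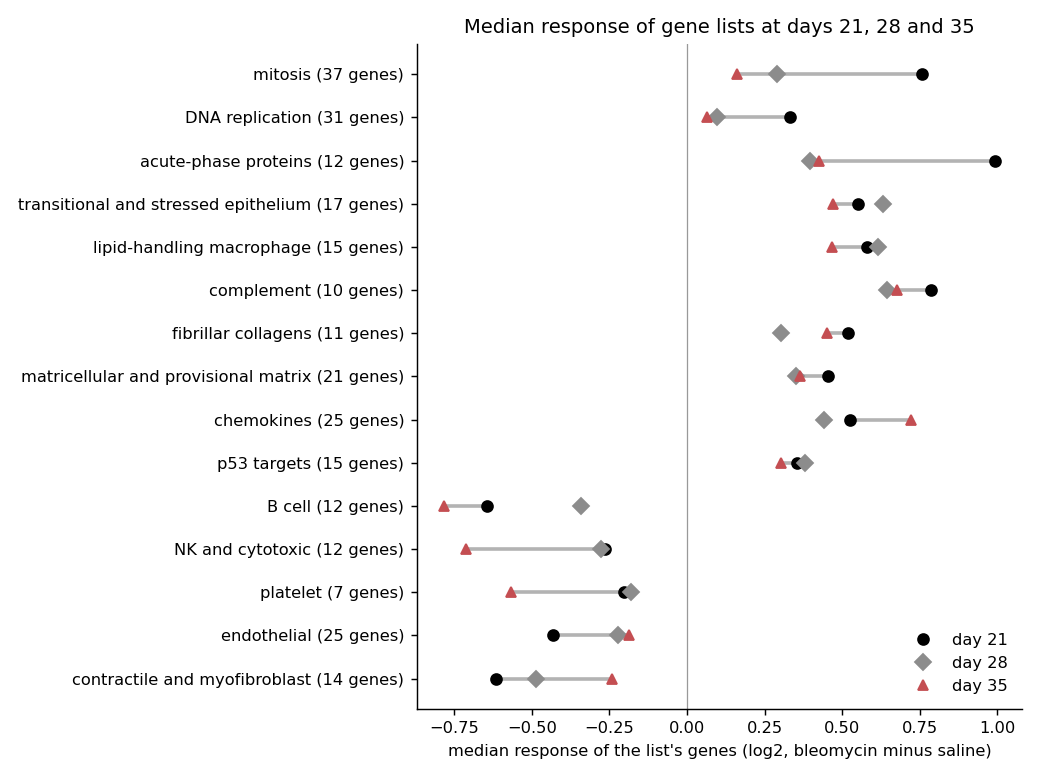
Median response of the genes in each list at days 21 (circle), 28 (diamond) and 35 (triangle), as log2 bleomycin minus saline on the horizontal axis. Mitosis and DNA replication moved from 0.76 and 0.33 toward 0, and contractile and endothelial genes moved from -0.62 and -0.43 toward 0. The medians of fibrillar collagens were 0.52 and 0.45 at days 21 and 35, and without the pair of mice that stood apart they were 0.60 and 0.28. Those of complement were 0.94 and 0.60 without the pair.

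Of the epithelial lists, the alveolar and transitional ones had median changes near 0 with all mice, and those of the airways lay further below it. That order rested on the pair of mice that stood apart. Without the pair the median change was -0.20 for the transitional list, -0.11 for ciliated cells and -0.33 for club and goblet cells. Of 17 genes of transitional and stressed epithelium 12 were higher at day 21 (background 20.5%) and 11 at day 35 (background 16.9%). Their median responses were 0.55 and 0.47. Itgb6, the integrin chain that activates latent TGF-beta, had a change of -0.49 (SE 0.24, adjusted p = 0.503). The p53 targets, which respond to DNA damage, had 11 of 15 genes higher at day 21 and 8 at day 35 (backgrounds 20.5% and 16.9%). Their median responses were 0.35 and 0.30. Type I and type II alveolar genes had median changes of -0.06 and -0.01. Club cell and goblet genes had a median change of -0.21, with 18 of 21 below 0. Their median responses were 0.36 and -0.03 at days 21 and 35. Ciliated cell genes had a median change of -0.16, with 18 of 19 below 0, and median responses of 0.12 and -0.01. Neither airway list had an unadjusted call, and in both the bleomycin and saline mice overlapped at both days. The largest change among the alveolar type II genes was that of Scd1, a fatty acid desaturase of surfactant lipid synthesis, with a change of -0.82 ± 0.21 (SE, adjusted p = 0.122). Saline mice ran from 9.51 to 10.31 at day 21 and from 10.53 to 10.99 at day 35, a rise of 0.85 with no overlap. Bleomycin mice ran from 10.59 to 11.64 and from 11.07 to 11.85 and differed by 0.02. Bleomycin mice lay above the saline mice of the same day at both days, with responses of 1.35 and 0.53. Without the pair Scd1 passed (adjusted p = 0.00172), as it did without either mouse of it and with array weights. The brighter Scd1 probeset, at a mean level of 14.14 near the top of the scale, gave a change of -0.18 (SE 0.04).

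Immediate early genes, which rise within minutes of handling or stress, had changes above 0 for 17 of 18 members, with a median of 0.22. Nr4a3, an orphan nuclear receptor, had the largest at 1.23 ± 0.49 (SE, adjusted p = 0.349). It fell by 1.42 in saline mice and differed by -0.19 in bleomycin mice, and 4 genes of the list fell in saline mice and 0 in bleomycin mice. The other Nr4a3 probeset, at a mean level of 6.38, gave a change of 0.06. The time from death to freezing was not given in the sources used here, and its part was not tested.

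The genes that had been more than 2-fold higher at day 14 gave a view of the late response from genes chosen on other arrays. Their median response was 1.38 at day 14, 0.87 at day 21, 0.61 at day 28 and 0.63 at day 35. The day 14 value is enlarged by choosing the genes on that day, so a smaller one at day 21 was partly fixed in advance. The same holds for the lower genes below. Of the 379 genes 343 were called higher at day 21 (background 20.5%), 217 at day 28 (background 11.5%) and 229 at day 35 (background 16.9%). Over 2-fold were 138 at day 21 and 86 at day 35. The median change from day 21 to day 35 was -0.24. It went toward 0 for 293 genes, reached an unadjusted p under 0.05 toward 0 for 92 and away from 0 for 2, and passed after adjustment for 1, Dab1. The 118 genes more than 2-fold lower at day 14 had median responses of -1.24, -0.78, -0.61 and -0.80 at days 14, 21, 28 and 35. Of these 81 were called lower at day 21 (background 18.9%) and 80 at day 35 (background 12.5%), and the median change was -0.05.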

How the data were processed

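Lung RNA was amplified with NuGEN Ovation kits and hybridised to Affymetrix mouse genome arrays. The deposited values are log2 levels that the authors made by RMA (background correction, quantile normalization and summary of probes), after remapping probes, with the build not given in the sources used here, and removing 1 array of saline day 14. Values compress at both ends of the scale, and the number of arrays limits the precision. Of 32688 probesets 27871 name 1 gene, 314 several and 4503 none. Where a gene had several, its most variable probeset over all arrays stood for it, which gave 15707 genes, of which 7093 had more than 1 probeset. Promoter windows come from RefSeq, build GRCm38.p6.

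A model with 1 mean for each of 14 groups was fitted to all arrays, which share 1 estimate of the spread (R 4.3.3, limma 3.58.1, lmFit and eBayes). The change was (bleomycin minus saline at day 35) minus (bleomycin minus saline at day 21), with Benjamini-Hochberg adjustment over all genes in each contrast. Named were the called genes and, in lists with no called gene, up to 2 members with the largest change. Any other gene was chosen after its values were seen. The lists and the comparison were chosen with earlier results of these data known. The fit was tested on simulated data. Alternatives were other probeset rules, leaving out the dimmest 30% of genes, repeated normalization, the 4 groups alone, unmoderated variances, array weights, a block for the replicate number and leaving out each of 32 arrays. Added after seeing the data was the fit without 2 arrays. No batch is given in the labels.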

Additional observations from a re-analysis of the deposited data

Results flagged for a closer look

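The 6 genes whose response differed between days 21 and 35 by the test of the change itself were Dkk3 (0.43), Paf1 (0.23), Dock6 (0.39), Dvl1 (0.22), Ide (-1.35) and Dab1 (-1.04), all on the log2 scale. Leaving out each of the 32 mice in turn, Dkk3 was called in 31 fits, Ide in 26, Paf1 in 21, Dab1 and Dock6 in 13 and Dvl1 in 11.

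Single mice far from the other 7 of their group were looked for in the genes described most fully, and 14 were found in 140 groups of 8 mice. Chance alone gives about 1 in 20 for independent groups. These genes were partly chosen after their values were seen, and several of the 14 share a mouse. The count is therefore a description and no test against that share. Replicate 4 of bleomycin day 21 had the lowest level for Mmp12 (7.62), Mmp13 (4.92), Col1a1 (12.31) and Col3a1 (11.10). Replicate 3 of bleomycin day 35 had the highest Cdc20 (9.21) and the lowest Pttg1 (9.81). Replicate 4 of saline day 21 had the highest Igha (14.03) and Prg2 (9.37) and the lowest Mmp12 (7.02). Replicate 1 of saline day 35 was lowest for Tagln (12.56) and Acta2 (6.52). Replicate 7 of saline day 35 was lowest for 4931408D14Rik (6.95). Replicate 8 of that group was highest for Prg2 (5.94). Replicate 1 of saline day 21 was lowest for Nr4a3 (11.42).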

How the results depend on the processing

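The number of genes whose response changed, 4 up and 2 down, was 2 and 1 with every probeset tested, 2 and 0 with the highest-mean probeset, 10 up with the mean of probesets, 1 and 0 with the 4 groups alone, 73 and 101 with array weights and 191 and 242 without the pair of mice that stood apart, a setting chosen after seeing the data. Leaving out 1 mouse gave 0 to 53 up and 0 to 87 down, and 1 call was left without replicate 6 of saline day 21, replicate 7 of bleomycin day 21 or replicate 1, 2 or 6 of saline day 35. The bleomycin mice differed between the days in 207 genes up and 201 down, in 351 and 316 with every probeset, 37 and 34 with the 4 groups alone, 360 down with array weights, 732 and 901 without the pair, and 23 to 461 and 30 to 587 leaving out 1 mouse. The saline mice differed in 326 and 271, in 769 and 655 with every probeset, 896 and 1084 with array weights, 165 down after repeated quantile normalization, 163 down after subtracting array medians, and 179 to 557 and 121 to 543 leaving out 1 mouse. Counts at day 21 were 5745 and 5361, and at day 35 4779 and 3416, with every probeset, which counts a gene more than once. Leaving out 1 mouse gave 2797 to 3459 and 2597 to 3167 at day 21 and 2330 to 2742 and 1583 to 2046 at day 35. The cause of these shifts was not tested.

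The change of Col1a1 turned negative with the highest-mean probeset (-0.15), the mean of probesets (-0.0610), array weights (-0.10), without the pair (-0.13) and on leaving out 6 single mice (-0.0463, -0.00615, -0.00322, -0.0308, -0.0749 and -0.0129), with a range up to 0.0933. That of Timp1 turned positive without replicate 3 (0.00438) or 7 (0.0253) of bleomycin day 21, and leaving out 1 mouse gave down to -0.381. Same-numbered mice were separate animals, and the correlation of their deviations had a median of 0.134 over 48 pairs, with a range of -0.43 to 0.51. A replicate block gave 7 calls, 6 of them the same genes, and 11 of 32 mice were most like one with their own number. Signal at the top of the scale, as for Sftpc, limits what can be seen.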
